A study of Mus musculus with 3 samples.

Results

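Cluster 17 is 1 of 10 keratinocyte clusters that the authors' deposited cell table names for the mouse anorectal junction, where the lining of the colon meets the skin of the anus. Its cells were taken by that cluster number alone. They were 461 of 37080 cells (1.24%) and of 20321 keratinocytes (2.27%), with 162 on day 0, 236 on day 7 and 63 on day 42. The working name, Cxcl14 Postn hair follicle keratinocytes, rests on 5 marker genes, Cxcl14, Postn, Krt71, Krt27 and Wfdc18. All groups were wildtype C57Bl/6 mice, 6 weeks old when bought from the Jackson Laboratory. Mice of the day 0 group were untreated and histologically normal. The day 7 group, in severe colitis, and the day 42 group, recovered, had drunk water with 3% dextran sulfate sodium (DSS), a salt that injures the gut lining, for 6 days. Distal colon and anus of 5 mice per day were pooled, so there was 1 library per day with no replicates, and no test between days could be made. Per the labels, the tissue was digested with trypsin, freed of dead cells and made into 10x Chromium 3' libraries.

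A hair follicle is a set of nested keratinocyte layers. The outer root sheath is continuous with the epidermis and holds the bulge, where follicle stem cells reside. The inner root sheath moulds the growing hair and is built of its own keratins together with trichohyalin, and a companion layer joins both sheaths. At the base, dividing matrix cells give rise to the inner root sheath and the hair shaft, and melanocytes there supply pigment. Follicles pass through growth and rest, and the inner root sheath is made only during growth.

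The markers in the cluster's name were not shared by all of its cells. Most cells had RNA of Cxcl14, a chemokine of skin epithelium, and about as many had Postn, a matrix protein, as lacked it. RNA of the inner root sheath keratins Krt71 and Krt27 lay mostly in a small set of cells. With cells thinned to equal sequencing depth, few of those with Krt71 or Krt27 had Cxcl14 or Postn. Wfdc18, a secreted protease inhibitor of the whey acidic protein family, lay in cells that mostly had Cxcl14 but less often Postn. Keratins of the inner root sheath and trichohyalin were near 0 on day 0 for Krt71 and Tchh and high on day 7 and day 42, while Wfdc18 and Krt16 were highest on day 0.

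The upstream sequences of the inner root sheath keratins are shown first, because these genes lie side by side in a pair of keratin clusters, had most of their RNA in 1 small sub-cluster and, for Krt71, Krt25 and Krt27, had some of the highest ratios between days, which Krt73 did not. Each is 300 bases long, from 250 before to 50 after the RefSeq transcript start, on the gene's own strand, from RefSeq on GRCm38.p6. Capitals mark TATAAA, the core of the TATA box, and AGATAA, a form of the motif read by GATA factors, on either strand. Both motifs were picked with the results known. Krt71 and Krt73 lie on chromosome 15 (chr15:101743048-101743347 and chr15:101802311-101802610, minus strand), and Krt25 and Krt27 on chromosome 11 (chr11:99322902-99323201 and chr11:99351069-99351368, minus strand).
Krt71: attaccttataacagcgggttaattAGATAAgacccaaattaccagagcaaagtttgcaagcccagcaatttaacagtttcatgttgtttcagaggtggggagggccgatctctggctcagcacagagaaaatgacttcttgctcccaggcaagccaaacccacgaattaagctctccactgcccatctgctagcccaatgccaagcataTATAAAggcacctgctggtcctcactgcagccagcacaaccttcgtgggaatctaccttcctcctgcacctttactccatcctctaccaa
Krt73: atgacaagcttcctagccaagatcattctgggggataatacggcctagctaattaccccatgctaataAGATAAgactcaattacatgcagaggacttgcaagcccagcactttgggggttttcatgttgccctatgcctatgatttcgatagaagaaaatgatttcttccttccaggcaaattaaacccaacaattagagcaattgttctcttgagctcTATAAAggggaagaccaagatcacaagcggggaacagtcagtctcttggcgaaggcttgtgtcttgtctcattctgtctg
Krt25: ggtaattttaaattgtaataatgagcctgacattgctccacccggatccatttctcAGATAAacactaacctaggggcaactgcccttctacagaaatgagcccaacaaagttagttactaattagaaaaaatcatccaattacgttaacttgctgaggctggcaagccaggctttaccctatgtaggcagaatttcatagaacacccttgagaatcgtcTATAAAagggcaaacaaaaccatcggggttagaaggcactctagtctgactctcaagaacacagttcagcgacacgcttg
Krt27: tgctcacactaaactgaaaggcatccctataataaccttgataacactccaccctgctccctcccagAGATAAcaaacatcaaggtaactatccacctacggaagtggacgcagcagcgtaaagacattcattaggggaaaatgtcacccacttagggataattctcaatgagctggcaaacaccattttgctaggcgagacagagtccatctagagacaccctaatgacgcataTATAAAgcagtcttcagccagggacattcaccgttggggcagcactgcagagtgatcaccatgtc

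TATAAA starts 40 bases before the transcript start in Krt71, 30 bases before it in Krt73 and Krt25, and 15 bases before it in Krt27. AGATAA starts 225, 182, 194 and 183 bases before the start in Krt71, Krt73, Krt25 and Krt27. Over the 9 listed inner root sheath genes with a promoter in the table, 7 held TATAAA and 5 held AGATAA, on either strand (TTTATA or TTATCT). Of all 32851 promoters of the same length, 13.6% held TATAAA, 11.2% held AGATAA and 2.35% held both, as did 4 of the 9. The 2 other motifs searched were CTTTGA, a form read by Lef1 and Tcf factors, and AACAAT, a form read by Sox factors (TCAAAG and ATTGTT on the other strand). Each was in 2 of the 9 promoters, against 16% and 10.7% of all. These matches describe the sequence and show no binding.

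The promoters of Cxcl14 and Postn are shown because these genes had UMIs in most of the cells that lacked the inner root sheath keratins. Cxcl14 lies on the minus strand (chr13:56296502-56296801) and holds none of the motifs searched. Postn lies on the plus strand (chr3:54360857-54361156) and has TATAAA 26 bases before the start shown, without AGATAA. The table lists another Postn start upstream (chr3:54359017-54359316), whose promoter holds AACAAT and neither TATAAA nor AGATAA.
Cxcl14: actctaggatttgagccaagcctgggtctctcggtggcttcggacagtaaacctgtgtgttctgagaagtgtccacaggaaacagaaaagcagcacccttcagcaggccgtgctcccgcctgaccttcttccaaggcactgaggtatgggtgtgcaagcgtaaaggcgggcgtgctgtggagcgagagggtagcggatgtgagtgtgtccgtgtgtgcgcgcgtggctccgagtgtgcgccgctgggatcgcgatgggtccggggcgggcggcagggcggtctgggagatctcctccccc
Postn: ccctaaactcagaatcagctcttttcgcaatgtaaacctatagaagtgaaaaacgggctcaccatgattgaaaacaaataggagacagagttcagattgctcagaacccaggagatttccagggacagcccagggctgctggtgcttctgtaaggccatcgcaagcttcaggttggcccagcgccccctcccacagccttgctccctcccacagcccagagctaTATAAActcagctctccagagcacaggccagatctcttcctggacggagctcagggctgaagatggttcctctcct

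Levels are counts per 1e6 unique molecular identifiers (UMIs, each a captured molecule) summed over the cells of a cluster and day (CPM). Brackets give exact Poisson 95% intervals, which cover counting error in that library only and not the spread between mice. Ratios between groups are on the log2 scale with 10 CPM added to both. Levels are compared for the same gene, never between genes, since 3' counts were not set against a standard.

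The day 0, day 7 and day 42 cells of cluster 17 held 1091144, 2210795 and 225841 UMIs, so 1 UMI was worth 0.9165, 0.4523 and 4.428 CPM. A count of 0 allows up to 2.749, 1.357 and 13.28 CPM, taking 3 counts as the floor. The median cell had 4783.5, 8175.5 and 2851 UMIs, against 9307.5, 11687 and 6559 in the 9 other keratinocyte clusters. The median share of mitochondrial UMIs was 8.11%, 6.62% and 7.23%. Depth thus moved with day, and its part in the differences between days was not tested beyond thinning each cell to 1000 UMIs, given where shares of cells with a marker are compared between days. In all, 278 of 37080 cells had a barcode that also occurred in another library. There were 3 such cells in cluster 17, and none of their partners was a keratinocyte.

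Cluster 17 made up a smaller share of keratinocytes on the later days. It was 4.885% of keratinocytes on day 0 (162 of 3316, exact Clopper-Pearson 95% interval 4.177 to 5.675), 2.612% on day 7 (236 of 9035, 2.293 to 2.962) and 0.7905% on day 42 (63 of 7970, 0.6079 to 1.01). The intervals do not overlap, but they cover counting error and not variation between dissections. Keratinocytes themselves were a larger part of the later libraries. Of all cells, cluster 17 was 1.468% (1.252 to 1.71), 1.642% (1.44 to 1.863) and 0.54% (0.4152 to 0.6904) as deposited, where day 7 was not below day 0. After the alternative filter on depth, genes and mitochondrial share per cell, the shares of all cells on day 0 and day 7 were 2.094% and 2.021%, with overlapping intervals. Other keratinocyte clusters moved in the same libraries: cluster 8 was 23.55%, 10.44% and 4.567% of keratinocytes, cluster 9 was 17.97%, 11.15% and 5.721%, and cluster 1 was 13.36%, 6.231% and 38.18%. How much skin bearing hair each dissection held, and how many follicle cells survived digestion, cannot be told apart from a different number of these cells per mouse.

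**Figure D1:**
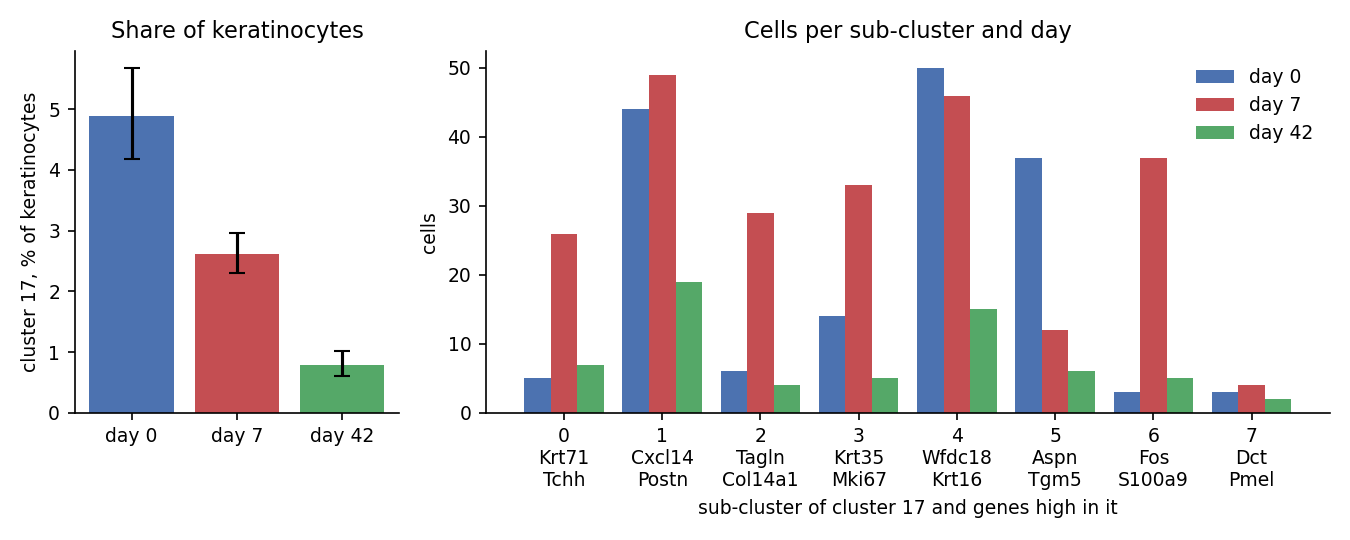
Left, cells of cluster 17 as a percentage of keratinocytes on each day, with exact 95% intervals for counting error (1 library per day); the bars stand at 4.885%, 2.612% and 0.7905%. Right, number of cells in each of 8 sub-clusters by day, labelled with genes high in it; day 7 supplied 37 of the 45 cells of sub-cluster 6 and 26 of the 38 of sub-cluster 0, and day 0 supplied 37 of the 55 of sub-cluster 5.

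Against the other keratinocytes, cluster 17 was marked by outer root sheath and bulge genes, inner root sheath genes and 4 of the 5 tested genes, of 16 listed, for matrix and adhesion. Postn is on the first and last of these lists, and Krt71 and Krt27 are on the second. The lists thus partly restate the markers in the cluster's name. The 9 other clusters were averaged with equal weight over all days. Since clusters are made from gene levels, these values describe cluster 17 and are no test. Of 3216 genes with at least 50 CPM in cluster 17 or in the average, 245 (7.62%) were at least 2-fold higher in cluster 17 and 212 (6.59%) at least 2-fold lower, with a median log2 ratio of 0.13. The most similar clusters across 4448 genes were 8 and 9, each with Pearson's r of 0.865 between log2 levels across genes, which are not independent points. Cluster 5 was the least similar at 0.698. Clusters 26 and 12 had 0.739 and 0.805.

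The marker genes differed in how widely they were spread. Cxcl14 (ENSMUSG00000021508) had 3327 CPM on day 0 (3219 to 3437), 2849 on day 7 (2779 to 2920) and 3219 on day 42 (2989 to 3462). With all days summed, its mean over the other clusters was 61.38 CPM, a log2 ratio of 5.41, and the next highest cluster was 26 with 366.5. A Cxcl14 UMI was found in 89.5%, 88.1% and 87.3% of cells on the 3 days, against 1.37%, 2.54% and 0% of T cells, which should lack it, at T cell median depths of 2064, 2260 and 1393 UMIs. Thinned to 1000 UMIs per cell, leaving out 4 cells of day 0, the shares were 71.5%, 72.5% and 71.4%. Cxcl14 was therefore level across the days in the share of cells with it.

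Postn (ENSMUSG00000027750), which encodes periostin, had 1772 CPM on day 0 (1693 to 1852), 1087 on day 7 (1044 to 1132) and 1873 on day 42 (1699 to 2060). With all days summed, the other clusters averaged 9.777 CPM and none was above 23.47, so the log2 ratio was 6.1, the highest of the genes with at least 100 CPM. A Postn UMI was in 57.4%, 46.2% and 55.6% of cells, or 47.5%, 34.7% and 42.9% thinned, against at most 1.37% of T cells. Day 7 was the lowest of the days on every one of these scales.

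Wfdc18 (ENSMUSG00000000983) had 1275 CPM on day 0 (1209 to 1344), 309.4 on day 7 (286.6 to 333.5) and 274.5 on day 42 (210.5 to 351.9). The other clusters averaged 7.184 CPM, a log2 ratio of 5.16, and 10 of the 461 cells held 52.5% of its UMIs. Cells with a UMI were 46 of 162, 54 of 236 and 14 of 63, and thinned shares were 20.3%, 9.75% and 19%. T cells with a UMI were at most 1.65%. On day 42 the thinned share was thus close to that of day 0, while the level was lower.

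Krt71 (ENSMUSG00000051879) and Krt27 (ENSMUSG00000017588), keratins of the inner root sheath, were found in 46 and 48 cells. Krt71 had 11 CPM on day 0 (5.683 to 19.21), 2810 on day 7 (2740 to 2881) and 1939 on day 42 (1762 to 2130). Krt27 had 93.48 CPM (76.22 to 113.5), 1082 (1039 to 1126) and 805.9 (693 to 931.8). The 10 cells with most UMIs held 94.3% of those of Krt71 and 96.5% of those of Krt27. No T cell had a UMI of either gene on any day, which for 219, 118 and 121 T cells allows up to 1.67%, 3.08% and 3% by the exact interval. These genes mark few cells of the cluster. Krt71 was in 6.17%, 13.6% and 6.35% of cells on the 3 days, and in 1.27%, 6.36% and 4.76% thinned to 1000 UMIs, which were 2, 15 and 3 cells.

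Krt71 was also present elsewhere. Cluster 12 had 1747 CPM of it over all days, but 1 of its cells, from day 0, held 7309 of its 7341 Krt71 UMIs, and the same cell held 7310 of the 7384 Krt25 UMIs, 1933 of the 1937 Krt27 UMIs and 2617 of the 2649 Tchh UMIs of that cluster. The log2 ratio of cluster 17 to the others was 3.21 for Krt71 with cluster 12 and 7.46 without it. Without the 10 highest cells of cluster 17 it was -0.73, with Krt27 at -0.69 and Tchh at -1.91. Over the whole series, 24 cells had at least 0.1% of their UMIs from Krt71. Cluster 17 held 16 of them, 13 from day 7 and 3 from day 42, and none from day 0.

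**Figure D2:**
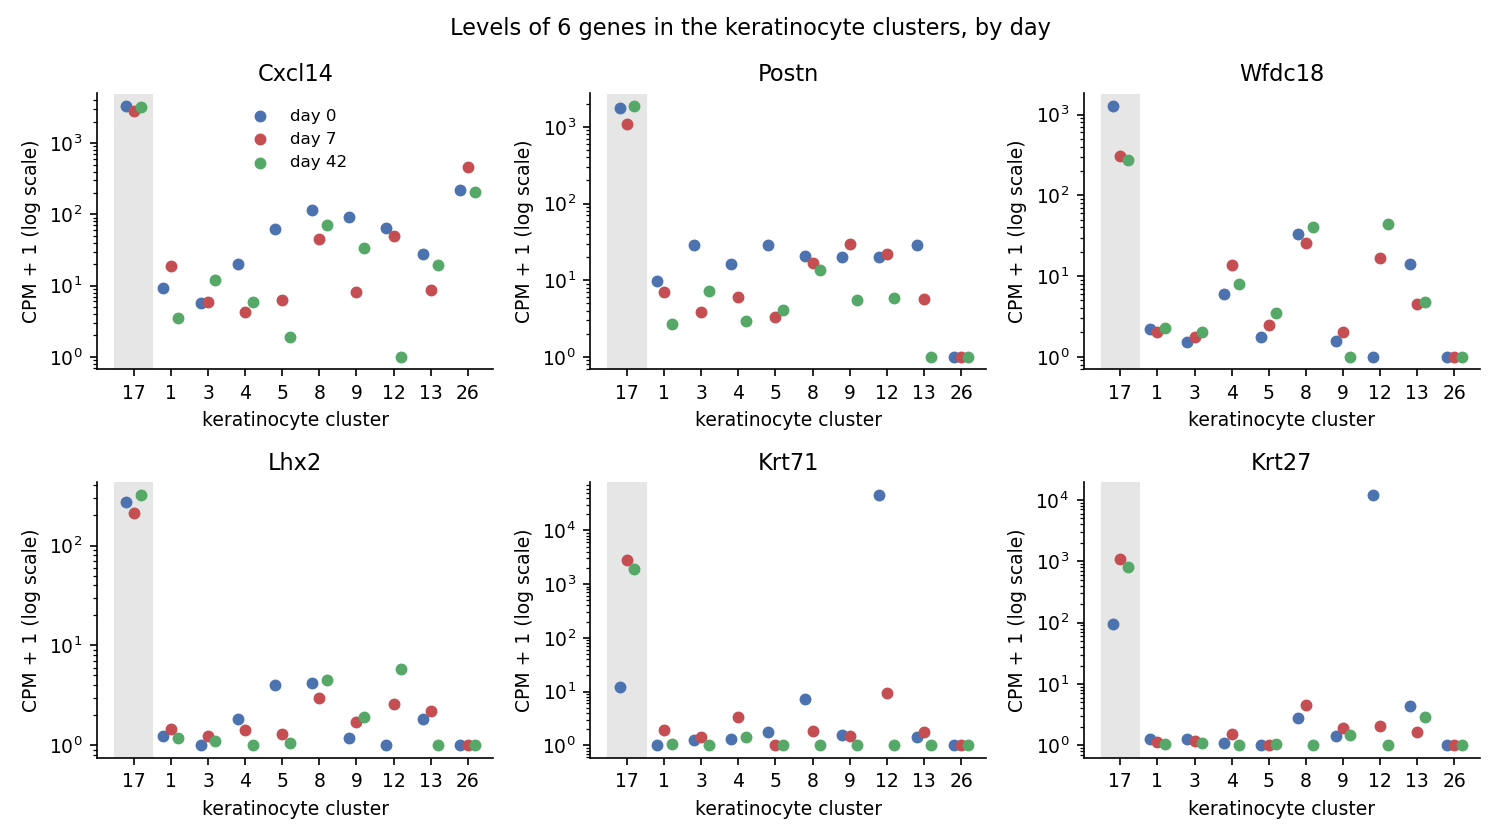
CPM plus 1 on a log scale in each keratinocyte cluster, 1 point per day, for 6 genes, with cluster 17 shaded. Cxcl14, Postn, Wfdc18 and Lhx2 are above all other clusters on each day; Krt71 and Krt27 are low in cluster 17 on day 0 and highest in cluster 12 on day 0, where 1 cell holds nearly all of their UMIs.

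Within single cells, the markers split. Of the 461 cells, 408 had Cxcl14, 237 had Postn and 226 had both. Krt71 and Krt27 were found together in 20 cells. Thinned to 1000 UMIs, 457 cells remained: 163 of the 184 with Postn also had Cxcl14, and 10 of the 20 with Krt71 also had Krt27. Only 1 of those 20 had Postn and 2 had Cxcl14, against 184 and 329 of all 457 cells. None of the 20 had Wfdc18, and of the 67 cells with Wfdc18, 11 had Postn and 52 had Cxcl14. At full depth, which differs between these cells, 26 of the 46 cells with Krt71 and 109 of the 114 with Wfdc18 had Cxcl14, and 15 and 38 had Postn. Cells with Wfdc18 were therefore among those with Cxcl14 and were set apart by Postn, while those with Krt71 were low in both after thinning.

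The gene lists describe the cluster by layer of the follicle. They share some genes, and the filter on low levels means that a listed gene that is high only in cluster 17 enters the count because it is high. The list for outer root sheath and bulge had 16 genes, of which 13 passed the filter and 11 were at least 2-fold higher in cluster 17, none lower, with a median log2 ratio of 2.15 against 0.13 for all genes. Those not passing the filter were Cd34 (29.76 CPM), Tcf7l1 (22.68) and Fgf18 (2.835). Lhx2, a homeobox factor of follicle stem cells, had 270.4 CPM on day 0 (240.4 to 303), 212.1 on day 7 (193.4 to 232.2) and 323.2 on day 42 (253.4 to 406.4), and at most 2.557 in any other keratinocyte cluster with all days summed. Its UMIs were in 66%, 70.3% and 55.6% of cells, or 25.9%, 21.2% and 31.7% thinned, and in at most 0.457% of T cells. The order of the days turned with thinning, so none is read from these shares.

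Sox9, a factor of the bulge and outer root sheath, had 657.1 CPM on day 0 (609.9 to 707), 463.2 on day 7 (435.2 to 492.4) and 677.5 on day 42 (574.4 to 793.7). With all days summed, the next highest cluster, 8, had 241.5. Lgr5, a receptor for R-spondins on follicle stem cells, had 120.1 CPM (100.4 to 142.5), 72.82 (62.01 to 84.98) and 79.7 (47.24 to 126), with 6.53 in the next cluster over all days. Krt15, a keratin of the bulge and of basal cells, had 2408, 2211 and 3015 CPM, but cluster 1 had 2083 with all days summed. On day 0 it did not set cluster 17 apart, as clusters 1, 3, 5 and 9 had 3420, 2647, 4589 and 3310 CPM. The highest other clusters had 1582 on day 7 (cluster 1) and 2504 on day 42 (cluster 9). Nfatc1, a factor of resting follicle stem cells, had 83.4 CPM (67.15 to 102.4), 36.19 (28.69 to 45.04) and 31 (12.46 to 63.86), and was the only gene of the list at least 2-fold lower on day 7.

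Of the inner root sheath list, 9 of 10 genes were in the table, and 7 passed the filter and were at least 2-fold higher in cluster 17, with a median of 3.64. Krt26 had 2 UMIs and Krt72 had 25, all in 1 cell of day 0. Gata3, a transcription factor of the inner root sheath that other keratinocytes use too, had 277.7 CPM on day 0, 208.1 on day 7 and 230.3 on day 42. It was in 59.4% of cells, unlike the keratins, and its 10 highest cells held 23.7% of UMIs. For the companion layer, 2 of 5 were higher and 1 lower. Krt75, the keratin that defines that layer, had 287.7 CPM against 3.217, with 94.6% of UMIs in 10 cells, Krt17 had 7492 against 1313, and Krt6b had 5.386 against 404.6. Against the highest of the 9 clusters the log2 ratio of Krt17 was 0.84, short of 2-fold. Cluster 8 had 3918, 4389 and 4133 CPM of Krt17 on the 3 days.

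Lists of other parts of the skin were mostly lower. All 7 of the tested hair shaft genes were at least 2-fold lower, with a median of -4.3, and Krt31 and Krt83 had no UMI, against 2884 and 3025 CPM in cluster 26. That cluster, of 35 cells, set the average for this list: against the pooled UMIs of the 9 clusters, Krt35 was higher in cluster 17, at 2.01. Summed over the hair shaft list, cluster 17 had 160.7 CPM, with 24840 in cluster 26, 182.5 in cluster 5 and 5.648 to 39.51 in the rest. Of the upper follicle genes 4 of 5 were lower (median -1.71), of the sebaceous gland genes 6 of 7 (-2.84), and of the anal mucosa and transition zone genes 7 of 9 (-3.76), Psca being at 6.803 CPM against 789.8. For the first 2 of these lists 1 cluster set the average as well: summed over the list, cluster 17 had 1202 CPM of upper follicle genes, with 30860 in cluster 8, 2018 in cluster 13 and 145.3 to 1127 in the other 7, and 305.9 CPM of sebaceous gland genes, with 14040 in cluster 13 and 169 to 669 in the other 8. None of the 10 tested basal keratinocyte genes was 2-fold higher or lower (median 0.15), with Krt5 at 3547 CPM against 2785. Of the suprabasal genes, 1 of 7 was higher, Sbsn, and 4 were lower, with Krt1 at 151.4 CPM against 1070 and Krt10 at 213.2 against 1398.

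The Wnt pathway, through which follicle stem cells and matrix cells are instructed, had 23 listed genes. Of the 11 that passed the filter, 9 were at least 2-fold higher and 1 lower (median 1.39). Genes high only in cluster 17 passed because they were high, so this count is no test. Summed over the list, cluster 17 had 1762 CPM and the other clusters 493.7 to 1219. Sfrp1, a secreted Wnt inhibitor, had 218.1, 249.2 and 332.1 CPM on the 3 days against 47.27 in the others, and Dkk3 had 98.98, 55.64 and 115.1 against 5.235. Fzd7, a Wnt receptor, had 89.81, 45.68 and 66.42 against 15.53. Lef1, a nuclear partner of beta-catenin in matrix cells, had 34.58 CPM against 31.71 and did not differ by 2-fold. Several of these genes also stand in the outer root sheath list.

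Further genes high in cluster 17 were Shisa2 (231.9 CPM against 4.73), Tbx1, a T-box factor (130.1 against 1.415), Creb5 (253.7 against 7.837) and Cald1, a binder of actin (240.9 against 6.691). Each was in 45.1% to 65.1% of cells. Prr9 (396.9 against 1.487) was in 3.69% of cells, with 96.7% of its UMIs in 10 of them. Tagln, an actin-binding protein of contractile cells, had 168.1 CPM against 3.714 and was in 6.94% of cells. The 5 genes lowest against the others were Psca, Ppbp, Krt83, Ltf and Krt31.

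Clustering the 461 cells alone gave 8 sub-clusters, numbered 0 to 7 and left unnamed. Their leading genes defined them and are a description. Sub-clusters 1, 5 and 6 held the highest Postn and Cxcl14 levels. Sub-cluster 1 (112 cells) had 5040 CPM of Postn and 8143 of Cxcl14, and was led by Krt42, Tnfrsf11b, a decoy receptor for RANK ligand, and Sorbs2. Sub-cluster 5 (55 cells, 37 of them of day 0) was led by Aspn and Tgm5 and also held Wif1, Grem1, Fst, Nfatc1 (250 CPM) and Cd34 (195.6), the last being stem cell genes of the bulge. Its Lgr5 level was 336.9 CPM against 88.78 in sub-cluster 1, and its cells were shallow, with a median of 3086 UMIs.

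Sub-cluster 0 (38 cells) held the inner root sheath RNA: 13660 CPM of Krt71, 12460 of Krt25, 9495 of Tchh, 5442 of Krt27, 2508 of Krt28 and 1925 of Krt73. Its Cxcl14 level was 140 CPM and its Postn level 67.95, the former being the lowest of all sub-clusters. Its cells were deep, with a median of 10054 UMIs, and 5 of the 38 were among the 5% of cells with the highest doublet score in their library. Krt1 and Krt10 were also higher here than in the other sub-clusters, at 784.6 and 1141 CPM.

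Sub-cluster 3 (52 cells) was led by Krt35, a hair keratin, and Selenbp1, with Msx1 at 127.3 CPM and Lef1 at 146.2, both transcription factors of the hair matrix, and had the highest Mki67, a marker of cycling cells, at 705.9 CPM. Postn was at 4.716 CPM there. Sub-cluster 2 (39 cells) was led by Col14a1, Tagln and Acta2, with 425.6 CPM of Mki67 and 270.8 of Lgr5. No other sub-cluster had more than 127.7 CPM of Mki67.

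Sub-cluster 4 (111 cells) was led by Wfdc18 (2381 CPM), Krt16 (1668), Cst6 (3353) and Krt6a (7164), and had the highest Krt17 (18670) and Krt14 (14070). Sub-cluster 6 (45 cells, 37 of them of day 7) was led by the neutrophil genes Retnlg, found in 3 of its cells, and S100a9 (1306 CPM), found in 13, followed by stress genes such as Atf3 (1041), found in 34, and Fos (3271), found in all 45. Its Postn (2642 CPM) and Krt15 (4620) levels were among the highest of the sub-clusters.

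Sub-cluster 7 went against the name of the cluster. Its 9 cells, 3, 4 and 2 on the 3 days, had 11320 CPM of Dct, 6935 of Pmel and 6086 of Tyrp1, genes of pigment synthesis in melanocytes, with Pax3 and Tyr among their leading genes. Krt15 and Sox9 had no UMI there, and Krt5 and Krt14 were at 117 and 146.3 CPM. Of these 9 cells, 4 were among those with the highest doublet scores, and their median depth was 2117 UMIs. They stayed together when cells were clustered more coarsely or more finely, as did the 38 cells of sub-cluster 0, although at the coarser resolution the latter shared a cluster of 90 cells.

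**Figure D3:**
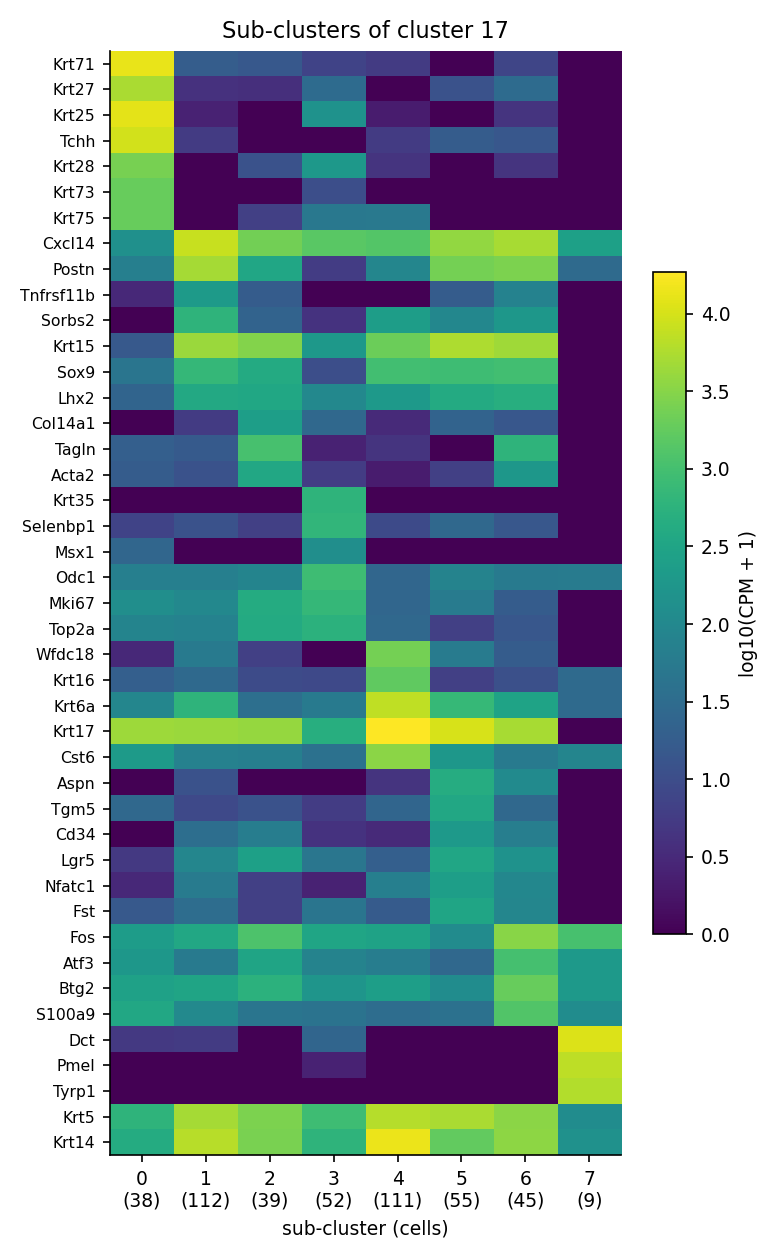
Colour gives log10 of CPM plus 1 for 43 genes (rows) in the 8 sub-clusters of cluster 17 (columns, with their number of cells, all days together). The 7 genes from Krt71 to Krt75 are brightest in sub-cluster 0, Wfdc18 and Krt16 in sub-cluster 4, and Dct, Pmel and Tyrp1 in sub-cluster 7, where Krt15 and Sox9 are at 0.

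RNA of other cell types was low in sum. The 6 melanocyte genes were 0.00733%, 0.0378% and 0.0323% of UMIs on the 3 days, and the 6 fibroblast genes 0.0274%, 0.00728% and 0.00664%. The 5 neutrophil genes were 0% on day 0, 0.0621% on day 7 and 0.00266% on day 42. At least 0.5% of UMIs came from melanocyte genes in 9 cells, from neutrophil genes in 5 and from fibroblast genes in 1. The T cell gene Cd3e and the colonocyte gene Cdx2 had no UMI in the cluster.

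Between day 7 and day 0, Krt71 and Tchh had the highest ratios, followed by S100a9, Krt25, S100a8 and Krt27. Of 3283 genes with at least 50 CPM on either day, 48 (1.46%) were at least 2-fold higher on day 7 and 34 (1.04%) at least 2-fold lower, with a median log2 ratio of -0.012. Of the 7 inner root sheath genes tested, 4 were higher and none lower, and their median was 3.4. The log2 ratios were 7.07 for Krt71, 6.9 for Tchh, 4.99 for Krt25 and 3.4 for Krt27, but 0.77 for Krt73 and 0.37 for Krt28. Tchh, or trichohyalin, had 4.582 CPM on day 0 (1.488 to 10.69), 1730 on day 7 (1676 to 1786) and 3520 on day 42 (3280 to 3774). Krt25 had 69.65 CPM (54.88 to 87.18), 2529 (2463 to 2596) and 2134 (1948 to 2334).

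These ratios rested on few cells. On day 0, 12 Krt71 UMIs lay in 10 of 162 cells, and at most 3 were in any one cell. On day 7 there were 6212 UMIs in 32 of 236 cells, 79% of them in 2 cells. On day 42 there were 438 UMIs in 4 of 63 cells, 76.9% of them in 2. For Tchh, 2 cells held 79.7% of the day 7 UMIs and 98.7% of those of day 42. Without sub-cluster 0, an alternative chosen after seeing the data, the log2 ratio of Krt71 on day 7 against day 0 was -0.07 and the median of the list -0.07.

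Other genes that led sub-cluster 0 were already present on day 0. Krt28 had 312.5 CPM on day 0 (280.2 to 347.5), 408 on day 7 (381.8 to 435.5) and 456.1 on day 42 (372.3 to 553.1). Krt73 had 169.5 CPM (146 to 195.8), 295.8 (273.6 to 319.4) and 451.6 (368.3 to 548.3), and Prr9 had 349.2 (315 to 386.1), 331.6 (308 to 356.5) and 1266 (1124 to 1422). On day 0, 2 cells held 76% of the Krt28 UMIs and 90.8% of those of Krt73.

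Within sub-cluster 0, which had 5, 26 and 7 cells on the 3 days, the same contrast was present. Its day 0 cells had 34.91 CPM of Krt71 (2 UMIs, 4.228 to 126.1) against 16130 on day 7 (15740 to 16540) and 9883 on day 42 (8979 to 10850). Tchh was at 34.91, 9935 and 17920 CPM. Krt28 ran the other way, with 5341 CPM on day 0 (4759 to 5974), 2122 on day 7 (1979 to 2273) and 2189 on day 42 (1775 to 2670), and Krt73 had 3124 (2683 to 3617), 1703 (1575 to 1839) and 2302 (1877 to 2794). On day 0, 3 of the 5 cells held nearly all of this: 206, 53 and 46 Krt28 UMIs and 121, 11 and 47 of Krt73, with 0, 1 and 0 of Krt71 and 0, 2 and 0 of Tchh. The other 2 had 1 and 0 Krt28 UMIs. Day 7 had such cells too, with 142, 93 and 50 Krt28 UMIs and 68, 64 and 54 of Krt73 beside no Krt71, as well as cells rich in Krt71. With so few cells from 1 pool, whether the lack of cells rich in Krt71 is a trait of day 0 was not tested.

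**Figure D4:**
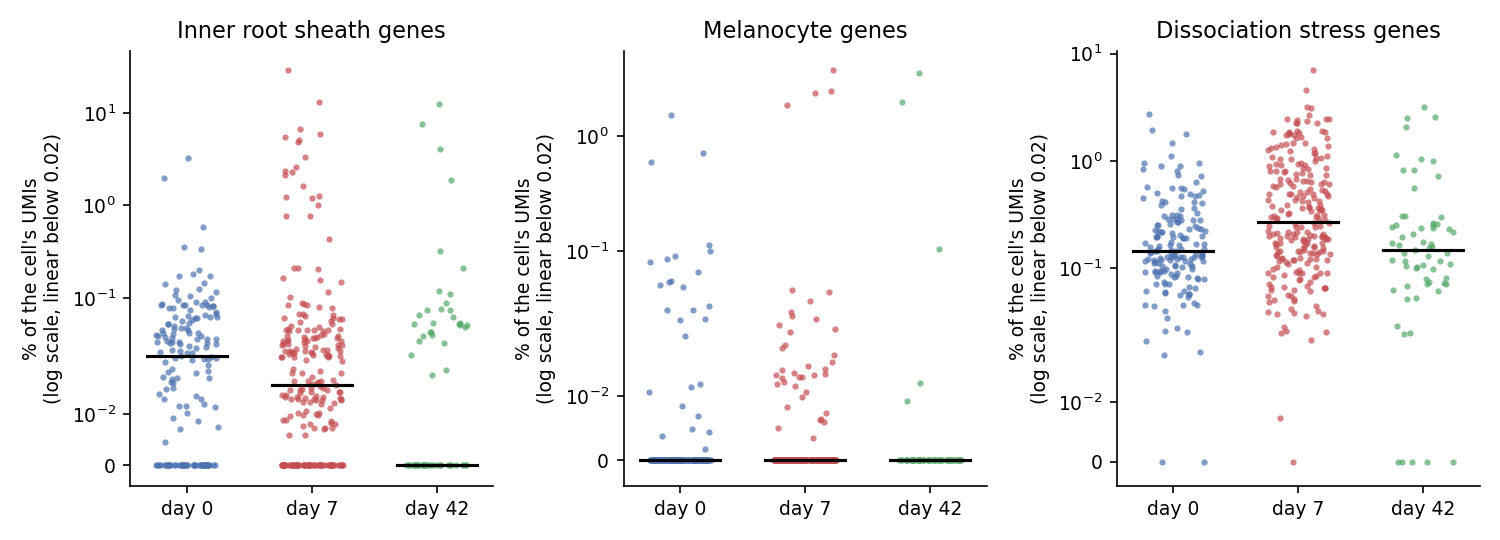
Each point is a cell of cluster 17; the y axis gives the percentage of its UMIs from the inner root sheath, melanocyte and dissociation stress lists (log scale, linear below 0.02%), by day, and black lines are medians. At least 1% of UMIs came from inner root sheath genes in 2 cells of day 0, 17 of day 7 and 4 of day 42, with highest values of 3.227%, 28.87% and 12.48%; 9 cells stand apart for melanocyte genes, while the median for stress genes is highest on day 7.

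Stress and immediate early genes were higher on day 7, in part through sub-cluster 6. Of the 15 genes of the dissociation stress list, 10 were at least 2-fold higher and none lower (median 1.29). Fos had 245.6 CPM on day 0 (217.1 to 276.8), 870.3 on day 7 (831.8 to 910.1) and 349.8 on day 42 (276.9 to 436). Egr1 had 165.9 (142.6 to 191.9), 482.6 (454.1 to 512.5) and 336.5 (265.1 to 421.2), and Atf3 had 40.32 (29.3 to 54.13), 270.5 (249.2 to 293.1) and 106.3 (68.09 to 158.1). Day 7 was the highest of the 3 days for each. Fos was higher on day 7 than on day 0 within sub-clusters 3 (447.6 against 106.1 CPM) and 4 (413.1 against 167.7). In sub-cluster 1 it had 429.5 against 304.9 CPM, and in sub-cluster 5, with 12 and 37 cells, 177 against 93.82, both with overlapping intervals. Egr1 was 227.7 against 170.7 CPM in sub-cluster 3 and 212.6 against 160.4 in sub-cluster 4, with overlapping intervals, and Junb 126.7 against 120.2 in sub-cluster 1. Without sub-cluster 6, an alternative chosen after seeing the data, the median of the list was 1.02, with Fos at 1.36 and Atf3 at 2.09.

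The same list had medians from -1.02 in cluster 9 to 1.18 in cluster 12 among the other keratinocyte clusters in this comparison, and 0.01 over them pooled. The genes are known to respond to tissue digestion as well as to injury, and the parts of both were not tested. With equal weight to the sub-clusters held by at least 10 cells on both days the median in cluster 17 was 0.63.

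S100a8 and S100a9, which form calprotectin in neutrophils and in stressed keratinocytes, had no UMI on day 0, 231.6 and 322.5 CPM on day 7, and 17.71 and 4.428 on day 42. The day 7 levels were at least 84.2-fold and 117-fold higher than day 0, taking the floor of 3 counts there. S100a9 UMIs lay in 92 cells on day 7, with 74.9% of them in 2. Retnlg, a neutrophil gene, had no UMI on day 0 or day 42 and 64.68 CPM on day 7 (54.52 to 76.2), in 28 cells. Neutrophil RNA therefore moved with these genes, and its part was not tested. The rise was not particular to cluster 17. On day 7 against day 0, the other keratinocytes pooled had log2 ratios of 5.42 for S100a8 and 4.85 for S100a9. Cluster 17 had 4.59 and 5.06.

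Genes lower on day 7 were led by Igfbp5, a binder of insulin-like growth factors, with 302.4 CPM on day 0 (270.7 to 336.9), 51.11 on day 7 (42.12 to 61.45) and 177.1 on day 42 (126.5 to 241.2). In sub-cluster 1 alone it had 841.6, 88.11 and 593.9 CPM. The log2 ratios on day 7 against day 0 were -2.35 for Igfbp5, -2.01 for Wfdc18, -1.61 for Nlrp10, -1.39 for Krt16 and -1.28 for Sbsn. With equal weight to sub-clusters Nlrp10, Krt16 and Sbsn had -0.71, -0.43 and -0.65, and thinned Krt16 had -0.8, all short of 2-fold. Of the outer root sheath and bulge genes, 1 of 13 was at least 2-fold lower and none higher, with a median of -0.53. The same list had a median of -0.52 in the other keratinocytes pooled. Postn and Cxcl14 were lower within sub-cluster 1 too, at 3858 against 6566 CPM and 6958 against 10100.

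The cells rich in Wfdc18 also differed within their sub-cluster. In sub-cluster 4 (50, 46 and 15 cells), Wfdc18 had 3336 CPM on day 0 (3162 to 3517), 1565 on day 7 (1447 to 1691) and 1235 on day 42 (942.6 to 1590). Krt16, a keratin of the companion layer and of wounded epidermis, had 2005, 1430 and 844.1 CPM, and Sbsn, or suprabasin, had 3900, 2280 and 1647. All 3 were highest on day 0. Cst6, another leading gene of this sub-cluster, was highest on day 7, with 1980, 4865 and 2100 CPM. Over the whole cluster Krt16 had 758.8 CPM (708 to 812.3), 284.1 (262.3 to 307.2) and 186 (134 to 251.4). Krt17 had 9482, 6833 and 4330 CPM, and its log2 ratio on day 7 against day 0 turned from -0.47 to 0.44 with equal weight to sub-clusters.

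Between day 42 and day 0, 50 of 3401 genes (1.47%) were at least 2-fold higher and 108 (3.18%) at least 2-fold lower, with a median log2 ratio of 0.013. Of the inner root sheath genes, 5 of 7 were higher and none lower (median 2.98), with Tchh at 7.92, Krt71 at 6.54, Krt25 at 4.75 and Krt27 at 2.98. Without sub-cluster 0 the median was -0.66. Padi3, an enzyme that modifies trichohyalin, had 6.415 CPM on day 0 (2.579 to 13.22), 17.64 on day 7 (12.54 to 24.12) and 124 on day 42 (82.38 to 179.2), found in 3 cells on day 42. Tesc, Dct, Prr9, Ass1 and Tm4sf1 had log2 ratios of 2.93, 2.14, 1.83, 1.67 and 1.6. Dct lay mostly in the cells of sub-cluster 7, and without them its ratio was -0.01. With equal weight to sub-clusters 1 and 4, an alternative chosen after seeing the data, Ass1 and Tm4sf1 turned to -1.21 and -1.07.

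Some cell division genes, Mki67 and Top2a among them, were at least 2-fold lower on day 42. Of the 10 genes tested against day 0, 4 were at least 2-fold lower and none higher (median -0.91), and against day 7, 5 of 11 were lower (median -0.76). With each cell thinned to 1000 UMIs these medians were -0.27 and -1.01, so the difference from day 0 was smaller at equal depth. Mki67 had 297.9 CPM on day 0 (266.3 to 332.1), 190.9 on day 7 (173.1 to 210) and 88.56 on day 42 (54.09 to 136.8), from 25, 65 and 7 cells. Top2a, which untangles DNA in dividing cells, had 190.6 (165.6 to 218.4), 178.7 (161.5 to 197.2) and 66.42 (37.17 to 109.5). In the other keratinocyte clusters pooled, the medians of the list were 0.01 and -0.5 in these comparisons. Against day 7, clusters 1, 3, 5 and 8 taken singly had 0.05, 0.55, 0.06 and 0.33. Clusters 4, 9, 12 and 13 had -0.23, -0.25, -0.62 and -0.26. Sub-cluster 3, which had the highest Mki67 level, had 14, 33 and 5 cells, and that level was 1098, 515.6 and 376.2 CPM.

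The wound edge list was also lower on day 42: against day 0, 4 of 6 genes were at least 2-fold lower and none higher (median -1.5). Thinned to 1000 UMIs per cell the median was -0.77, with Krt16 at -0.79 in place of -1.97. They were Krt6a (3029, 1543 and 1116 CPM on the 3 days), Krt16, Sprr1a (58.65, 107.7 and 13.28) and Tnc (144.8, 109 and 39.85), a matrix protein of wounds and of the follicle. Of the companion layer genes, 3 of 4 were lower, 2 of which, Krt6a and Krt16, are also on the wound edge list, and Krt75 was higher as summed. Krt75 had 49.49 CPM on day 0 (37.18 to 64.57), 421.6 on day 7 (394.9 to 449.5) and 128.4 on day 42 (86 to 184.4). Its direction on day 42 against day 0 turned when cells were thinned (-1.73), without sub-cluster 0 (-0.6) and with equal weight to sub-clusters (-0.68). Wfdc18, Crabp2, Krt16 and Cenpf had the lowest ratios, at -2.17, -1.98, -1.97 and -1.89.

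Between day 42 and day 7, 35 of 3268 genes (1.07%) were at least 2-fold higher and 59 (1.81%) lower, with a median of 0.01. The highest ratios were those of Padi3 (2.28), Prr9 (1.9), Ctsh (1.67), Igfbp5 (1.61) and Krt35 (1.56). The lowest were those of S100a9 (-4.53), S100a8 (-3.12), Sprr1a (-2.34), Zfp36 (-1.91) and Tagln (-1.84). Of the stress list, 4 of 15 genes were lower and none higher (median -0.69). Of the inner root sheath genes, 1 of 7, Tchh, was higher and none lower. Day 42 rests on 63 cells, so single cells weigh most there, and Krt35 there came from 3 cells. Without the 10 cells with most UMIs of the gene on each day, Prr9, Ctsh and Krt35 had -0.13, -1.2 and -0.31, where the median of all genes was -0.838, so only Ctsh of these fell below that median.

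**Figure D5:**
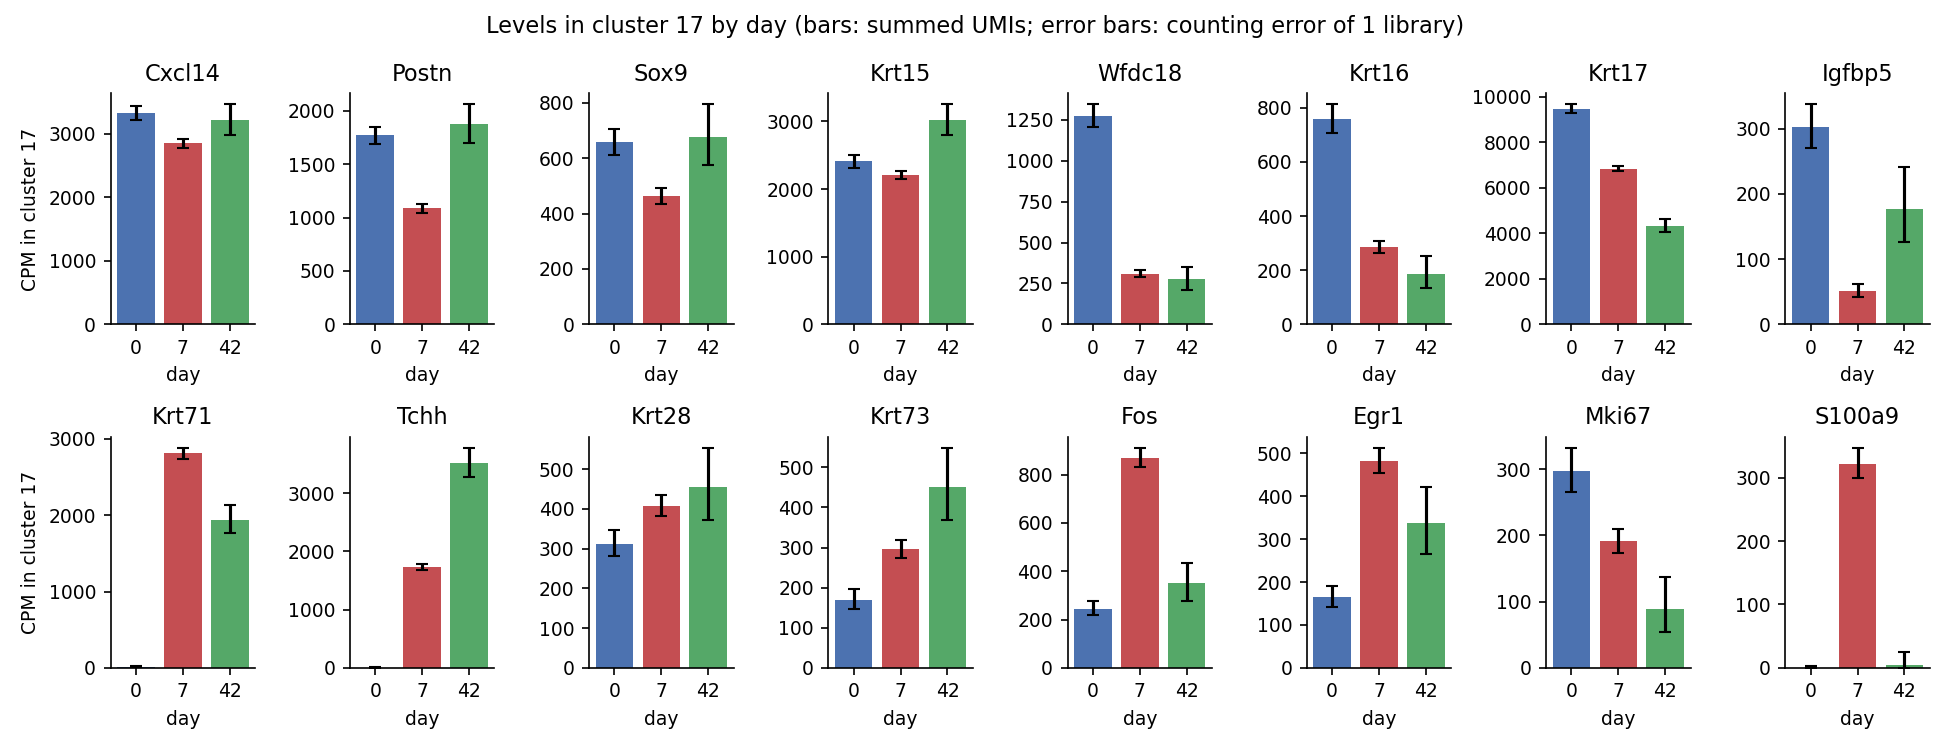
CPM in cluster 17 on day 0, 7 and 42 for 16 genes, each on its own axis from 0; bars are summed UMIs and error bars exact 95% Poisson intervals of 1 library. Cxcl14 stays between 2849 and 3327, Wfdc18, Krt16 and Krt17 are highest on day 0 as summed (Krt17 turns to 0.44 on the log2 scale for day 7 against day 0 with equal weight to sub-clusters), Fos, Egr1 and S100a9 on day 7, and Krt71 and Tchh are near 0 on day 0.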

How the data were processed

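The authors deposited whole-number counts per gene and cell (31053 genes, 37080 cells), without normalization, and a cell table with day, cluster and cell type. The deposited size factor is a ratio of each cell's total to the geometric mean of all totals, and the deposited map coordinates are scores that were not used here. Cell Ranger 3.0.2 and mm10 are given in the submitters' processing notes, and the filter on cells and the clustering method are not given in the sources used here. A count is taken as 1 UMI from the 3' chemistry in the labels.

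Counts of cluster 17 were summed per day and given as CPM. With 1 library per day, ratios and intervals for counting error only were computed, with no test, after a filter of at least 50 CPM in either group. PCR duplicates are removed by UMIs, but intervals do not cover mice or dissections. The depth of each group stands in the results. Sub-clusters were made with the Leiden method (2000 variable genes, 20 components, 15 neighbours, resolution 0.5).

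Genes were named by a rule: the 15 highest ratios against the other clusters and the 5 lowest, and for each pair of days the 10 highest and 10 lowest, all with at least 100 CPM, without mitochondrial, ribosomal protein, haemoglobin, immunoglobulin and sex-linked genes, plus the members of 28 lists (300 genes, 298 in the table). Leading genes of sub-clusters were named after their values were seen. The members and the lists were chosen with earlier results of these data known. No doublets were removed from the reported values. Scrublet's own threshold marked 436, 0 and 292 cells on the 3 days and so failed at day 7, and the 5% of cells with the highest score were left out as an alternative instead.

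Coordinates are on GRCm38. The ratios were tested on simulated data with 200 of 2895 genes changed: 100% had the right direction, and 96.5%, 90.5% and 93.5% passed 2-fold for day 7 against day 0, day 42 against day 0 and day 42 against day 7, with 0%, 0.37% and 0.56% of unchanged genes. The simulated sums had counting error but no variation between cells or mice. These figures therefore do not cover genes whose RNA lies in few cells. Clustering used scanpy 1.11.5 and igraph 0.11.9, intervals scipy 1.17.1, sums and ratios pandas 2.3.3 with numpy 2.4.6, and plots matplotlib 3.10.9, all in Python 3.11.15. Alternatives tried were size factors, other totals, pseudocounts, filters, thinning, doublet removal, removal of each gene's 10 highest cells, other comparators and other weights of sub-clusters.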

Additional observations from a re-analysis of the deposited data

Results flagged for a closer look

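Several values of cluster 17 between days had the opposite sign to the pooled other keratinocyte clusters, with at least 1 of them 2-fold or more for genes and 0.5 or more on both sides for lists. None of these differences was tested, since each day had 1 library.

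Between day 7 and day 0, the median log2 ratio of the inner root sheath list was 3.4 in cluster 17 and -2.59 in the others, with Krt71 at 7.07 against -4.4, Tchh at 6.9 against -2.59, Krt25 at 4.99 against -4.33 and Krt27 at 3.4 against -2.71. Between day 42 and day 0 the list median was 2.98 against -2.45, with Tchh at 7.92 against -2.45, Krt71 at 6.54 against -4.54, Krt25 at 4.75 against -4.52 and Krt27 at 2.98 against -2.78. In the other clusters, 1 day 0 cell of cluster 12 held 7309 of that cluster's 7341 Krt71 UMIs. In cluster 17, 2 cells held 79% of the day 7 Krt71 UMIs.

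Krt16 was at -1.39 in cluster 17 and 3.24 in the others between day 7 and day 0, and at -1.97 and 2.74 between day 42 and day 0. In cluster 17 the former was -0.8 thinned to 1000 UMIs and -0.43 with equal weight to sub-clusters, and the latter -0.79 thinned. The wound edge list, which holds Krt16, was at -1.5 against 1.33 between day 42 and day 0 and at -0.52 against 0.71 between day 42 and day 7. In the latter, most clusters taken singly did not have the sign of the pool. Clusters 3, 4, 5, 8, 9 and 13 had -0.57, -0.2, -0.06, -0.03, -0.11 and -0.27, and clusters 1 and 12 had 1.44 and 0.58. The suprabasal keratinocyte list was at 0.65 against -0.74 between day 7 and day 0, and at -0.23 in cluster 17 without sub-cluster 0. Between day 42 and day 7, the dissociation stress list was at -0.69 against 0.65 and Crip1 at -1.37 against 1.71. The stress medians of single clusters went both ways. Clusters 4, 8, 12 and 13 had -0.17, -0.1, -0.12 and -0.52, and clusters 1, 3, 5 and 9 had 0.83, 0.4, 0.35 and 0.48.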

How the results depend on the processing

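The limits are 1 library per day, 63 cells at day 42 and median depths of 4783.5, 8175.5 and 2851 UMIs. Of 99 alternative values of counts and shares, 53 stayed within 1.5 times the reported value or within its interval and 46 moved. Where the reported ratio was 2-fold or more (0.5 or more for list medians), the sign, before any shift of all genes, turned in 47 of 1452 alternative values of genes between days, 11 of 575 against other clusters and 8 of 180 list medians, all given below. Of smaller ratios it turned in 331 of 3348, 67 of 345 and 27 of 276. Without the 10 highest cells, Fos for day 42 against day 0 went from 0.49 to -1.68, Mki67 for day 7 against day 0 from -0.62 to 0.79, and the inner root sheath median for day 42 against day 7 from 0.14 to -2.09. Krt73 for day 7 against day 0 went from 0.77 to -0.76 with equal weights, and Krt28 for day 42 against day 0 from 0.53 to -1.47 with doublet removal. Unless the construction shows it, the cause was not tested. No paired analysis was possible because each day had 1 library.

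The reported counts of genes at least 2-fold higher and lower were 48 and 34 for day 7 against day 0, 50 and 108 for day 42 against day 0, and 35 and 59 for day 42 against day 7. Without the filter on low values they were 89 and 67, 179 and 564, and 146 and 343, and with each cell thinned to 1000 UMIs 235 and 373, 388 and 525, and 460 and 378, where single UMIs weigh more by construction. Equal weight to sub-clusters (chosen after seeing the data; sub-clusters 1, 3, 4 and 5 for day 7 against day 0, and 1 and 4 otherwise) gave 22 and 62, 167 higher, and 230 and 144. The mean of CPM per cell gave 119 lower, 100 and 172, and 142 and 96. A pseudocount of 1 CPM gave 63 lower, 79 and 164, and 69 and 90. Totals without mitochondrial and ribosomal protein genes gave 126 and 177, and 95 and 127, in the comparisons with day 42. For day 42 against day 7, removal of high doublet scores gave 86 and 92, and leaving out sub-cluster 0 (chosen after seeing the data, as was leaving out sub-cluster 7) gave 65 higher, and leaving out sub-cluster 6 (chosen likewise) 57 higher. Without the 10 cells with most UMIs of each gene there were 14 lower at day 7, 0 higher and 716 lower for day 42 against day 0, and 0 higher and 910 lower for day 42 against day 7. That removes a larger part of the 63 cells of day 42 and moved the median of all genes to -0.69 and -0.838, so ratios under it are read against that shift: of the 18 values between days whose sign turned under it, 10 also lay on the other side of the median of all genes, and Krt27, Krt75 and Tm4sf1 (day 42 against day 0) and Prr9, Krt35, Tesc, Tchh and Defb6 (day 42 against day 7) did not. It moved the median for day 7 against day 0 to 0.161. The absence of a filter moved that for day 42 against day 0 to -0.127, and equal weights that for day 42 against day 7 to 0.12.

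Against the other clusters, 245 genes were higher and 212 lower, and against the highest of the 9 clusters 77 and 633. As a share of all cells, cluster 17 was 1.468%, 1.642% and 0.54%. Resolution 0.25 gave 5 sub-clusters in place of 8.

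For day 7 against day 0, equal weights reversed Krt71 (-0.08), Krt25 (-0.27), Pmel (-0.16), Ndufa4l2 (0.34) and the inner root sheath median (-0.08). Leaving out sub-cluster 0 reversed Krt71 (-0.07), Krt25 (-0.24) and the inner root sheath (-0.07) and suprabasal (-0.23) medians. Leaving out sub-cluster 7 reversed Pmel (-0.13), and leaving out the 10 highest cells Krt4 (0.47), Krt13 (0.91) and the anal mucosa median (0.47).

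For day 42 against day 0, equal weights reversed Krt71 (-1.27), Krt27 (-0.28), Krt75 (-0.68), Dct (-0.52), Ass1 (-1.21) and Tm4sf1 (-1.07). Leaving out sub-cluster 0 reversed Krt71 (-0.98), Krt25 (-0.12), Krt27 (-1.05), Krt73 (-0.66), Krt75 (-0.6), Prr9 (-0.57) and the inner root sheath median (-0.66). Leaving out sub-cluster 7 reversed Dct (-0.01) and Pmel (-0.13). Thinning reversed Ass1 (-0.69) and Krt75 (-1.73), and doublet removal Krt73 (-0.78). Leaving out the 10 highest cells turned the sign of Krt27 (-0.27), Krt75 (-0.14), Ass1 (-1.16), Tm4sf1 (-0.57), Fosb (-1.78), Atf3 (-1.06) and the stress median (-1.06).

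For day 42 against day 7, equal weights reversed Ctsh (-0.44) and Atf3 (1.13). Leaving out sub-cluster 0 reversed Fbp1 (-0.08) and Krt1 (0.12). Thinning reversed Krt35 (-0.23) and the matrix factor median (-0.38), and doublet removal Krt35 (-0.46), Selenbp1 (-0.38) and Fbp1 (-0.81). Leaving out the 10 highest cells turned the sign of Prr9 (-0.13), Ctsh (-1.2), Krt35 (-0.31), Selenbp1 (-0.91), Tesc (-0.14), Tchh (-0.8), Defb6 (-0.46) and the matrix factor median (-1.26).

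Against the other clusters, leaving out the 10 highest cells reversed Tchh (-1.91), Krt27 (-0.69), Krt71 (-0.73), Pmel (-0.07) and Tyrp1 (-0.01). The highest of the 9 clusters reversed Krt25 (-0.01), Dlx3 (-0.45) and Hist1h1b (-0.34), and pooled UMIs Krt35 (2.01), Selenbp1 (1.54) and AC103674.4 (0.85). The median of all genes was -0.402 against the highest cluster, so Krt25 and Hist1h1b lay above it, and -0.016 without the 10 cells, so Tyrp1 did.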
